A study of Homo sapiens with 10 samples.

Results

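The genes TBX2 and BCAS3, neighbours on chromosome 17, and TBX3 on chromosome 12 were examined for binding of the corepressors RCOR1, RCOR2 and RCOR3 and of the demethylase LSD1 in Kelly neuroblastoma cells. Members were all peaks of the 10 deposited peak lists that touched the RefSeq body (GRCh38) of any of the 3 genes or the 100 kb on either side of it. They came to 346 of the 308616 peaks that all lists hold on chromosomes 1 to 22 and X. The genes were selected on measured values, since a peak inside BCAS3 stood near the top of several lists, so the heights and counts below describe the members and no test was made of them. TBX2 occupies chr17:61399843-61409466, BCAS3 chr17:60677851-61392831 and TBX3 chr12:114670255-114684175. The end of BCAS3 lies 7.01 kb before the start of TBX2, so their windows merge into 1 stretch of 931.6 kb, chr17:60577851-61509466. The window of TBX3 is 213.9 kb long, chr12:114570255-114784175. A further 22 genes and pseudogenes touch the 2 windows, PPM1D and TBX4 among them.

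Chromatin immunoprecipitation followed by sequencing was run on 10 libraries in 5 groups of 2, all from Kelly, an established neuroblastoma cell line of the adrenergic type with amplified MYCN. For induced RCOR2, cells carrying a 3xFLAG-tagged RCOR2 transgene received 2 µg/mL doxycycline for 48 h and were precipitated with the FLAG antibody M2. Uninduced FLAG libraries came from such cells without doxycycline, with the same antibody. RCOR1 (antibody EPR13825) and RCOR3 (ab76921) were precipitated as the cells' own proteins from untreated cells, and LSD1 (ab129195) from untreated cells of a Kelly derivative that carries a doxycycline-driven shRNA against RUNX1T1. Differences between proteins therefore also hold differences between antibodies, between transgene and own protein and, for LSD1, between cell derivatives, and these cannot be told apart. No label tells whether the 2 replicates of a group came from separate cultures.

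RCOR1, RCOR2 and RCOR3 are the CoREST proteins, which bridge LSD1, an enzyme that removes methyl groups from lysine of histone H3, to the histone deacetylases HDAC1 and HDAC2. TBX2 and TBX3 are close relatives in the T-box family of transcription factors, act mostly as repressors, and TBX2 belongs to the core set of factors that maintain the adrenergic state of neuroblastoma. BCAS3 codes for a cytoskeleton-associated protein of cell migration. PPM1D, the next gene beyond BCAS3, codes for the phosphatase WIP1, which dampens p53 signalling, and TBX4, beyond TBX2, is a T-box factor of limb and lung.

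The start-site sequences below are shown because a peak of induced RCOR2 from each replicate reached into each of them. They are RefSeq windows on GRCh38.p14, 5′ to 3′ on the plus strand, with the GC box GGGCGG (either strand) and the core T-box site GGTGTGA (either strand) in capitals. The first is the start of LINC02875, a long noncoding RNA just beyond the 3′ end of TBX2 (chr17:61411501-61411800). The second is the start of BCAS3 (chr17:60677601-60677900), and the last that of PPM1D (chr17:60599943-60600242).
LINC02875: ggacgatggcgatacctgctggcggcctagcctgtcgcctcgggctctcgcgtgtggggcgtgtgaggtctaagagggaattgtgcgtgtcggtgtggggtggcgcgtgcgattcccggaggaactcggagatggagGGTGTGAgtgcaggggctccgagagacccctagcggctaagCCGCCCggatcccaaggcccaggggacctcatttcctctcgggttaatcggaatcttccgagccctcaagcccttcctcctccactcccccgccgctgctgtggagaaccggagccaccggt
BCAS3: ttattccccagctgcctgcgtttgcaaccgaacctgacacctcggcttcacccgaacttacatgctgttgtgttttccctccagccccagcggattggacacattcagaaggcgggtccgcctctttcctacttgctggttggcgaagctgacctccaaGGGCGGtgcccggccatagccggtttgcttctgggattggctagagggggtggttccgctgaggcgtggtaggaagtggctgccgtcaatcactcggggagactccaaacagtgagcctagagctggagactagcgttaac
PPM1D: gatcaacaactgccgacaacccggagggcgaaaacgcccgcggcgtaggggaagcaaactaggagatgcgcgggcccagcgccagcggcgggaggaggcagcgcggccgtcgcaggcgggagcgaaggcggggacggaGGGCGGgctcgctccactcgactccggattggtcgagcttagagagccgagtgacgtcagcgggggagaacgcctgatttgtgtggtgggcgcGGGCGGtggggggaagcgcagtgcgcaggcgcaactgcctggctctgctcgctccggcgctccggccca

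The LINC02875 window had 65.7% G and C and 26 CpG pairs, the BCAS3 window 58.3% and 16, and the PPM1D window 71.0% and 39, beside medians of 58.7% and 14 over 35116 RefSeq windows of the same length. GC boxes began at position 179 in LINC02875, at 160 in BCAS3 and at 139 and 232 in PPM1D, counted from the 5′ end. A GC box occurs in 45% of all those windows. The core T-box site, at position 138 of LINC02875, occurs in 3.45%. Of the other motifs searched on both strands, the E-box CAGCTG was found once, at position 9 of BCAS3 (17.9% of all windows). The E-box CACGTG (7.26%), the E-box CAGATG (14.7%), the GATA site AGATAA (10.3%), the homeodomain site TAATTA (4.84%), the AP-1 site TGANTCA (7.71%) and TCAGCACC, a part of the REST site (1.67%), were not found in the 3 windows. A match to these letters is a description of the sequence, not a binding site.

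Peaks at the 2 loci were unevenly divided between libraries. Induced RCOR2 had 57 and 59 peaks, and uninduced FLAG 8 and 12. RCOR1 had 69 and 26, RCOR3 26 and 26, and LSD1 35 and 28. Over the whole genome, each library had between 10253 and 75643 peaks, and the read depth is unknown. The height of a peak is given throughout as the fold enrichment that the authors' peak caller wrote beside it, a ratio, and pairs of values are replicates 1 and 2. Heights of different antibodies are not on a common scale, so an order between proteins is that of the written values only.

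A region was counted for a protein only where a peak of each replicate overlapped. At BCAS3 and TBX2, induced RCOR2 had 26 such regions, and uninduced FLAG had 5. RCOR1, RCOR3 and LSD1 had 15 each. At TBX3, induced RCOR2 had 7 and uninduced FLAG 1, while RCOR1 had 2, RCOR3 had 1 and LSD1 had 6. The RCOR1 count rests on its smaller second list. Every RCOR1 peak of replicate 2 met a peak of replicate 1, whereas 33 of the 48 peaks of replicate 1 at BCAS3 and TBX2 and 19 of the 21 at TBX3 stood in that replicate alone. Replicate 1 by itself would give 48 and 21 RCOR1 regions, and replicate 2 by itself 23 and 3. For induced RCOR2, replicate 1 by itself would give 41 and 16 and replicate 2 by itself 46 and 13. For LSD1, replicate 1 by itself would give 29 at BCAS3 and TBX2, and for RCOR3 either replicate by itself 4 at TBX3. Uninduced FLAG would have 11 at BCAS3 and TBX2 from replicate 2 by itself.

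**Figure D1:**
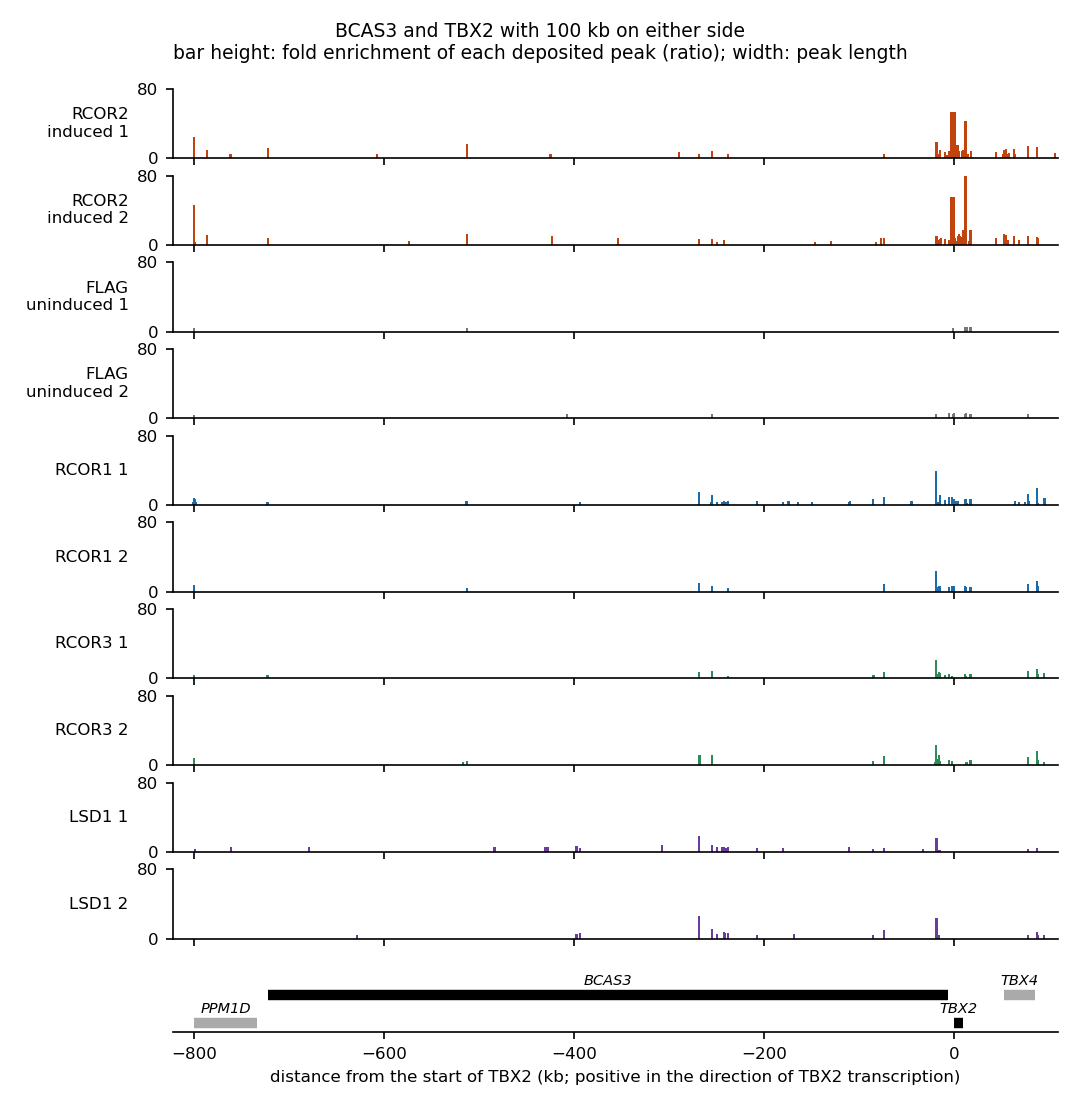
Fold enrichment (ratio, vertical axes from 0 to 80) of every deposited peak along BCAS3 and TBX2 with 100 kb on either side, by distance in kb from the TBX2 start, for 2 libraries of induced RCOR2, uninduced FLAG, RCOR1, RCOR3 and LSD1. The tallest RCOR2 bars stand at the start (53.08 and 55.61) and the 3′ end of TBX2 (43.15 and 79.2). The tallest RCOR1 and RCOR3 bars stand 18.8 kb before the TBX2 start, inside BCAS3.

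Inside the last part of BCAS3, all 4 proteins met in a region with some of the highest RCOR1 and RCOR3 values of the genome. This was chr17:61380040-61382097, 2058 bp within the body of BCAS3, 10.7 kb before its 3′ end and 17.7 kb before the start of TBX2. Whether the bases are exonic or intronic was not analysed here. RCOR1 reached 39.61 and 23.65 there, the 7th of 49250 and the 3rd of 18297 peaks of its lists. RCOR3 reached 21.12 and 23.56, the 3rd of 13644 and the 28th of 27786. These 4 libraries thus all placed the region within the top 28 of their lists.

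LSD1 and RCOR2 were also present in that region, but farther down their own lists. LSD1 reached 15.59 and 24.04, places 506 of 19392 and 318 of 19667. Induced RCOR2 reached 18.14 and 9.674, places 5087 of 75643 and 19284 of 59726. Uninduced FLAG had a peak in replicate 2 only, at 5.081. The summits of the 8 libraries of the 4 proteins fell within 88 bp of each other. A deposited list named RCOR2-high, which comes with no definition of its name, holds this region.

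Among 797 other regions of all 4 proteins in gene bodies, those whose ranks in the 8 lists came closest were in AGBL4, a tubulin deglutamylase gene, CHAT, which codes for choline acetyltransferase, PIPOX, ARAP1 and COL5A1. Their distance from the BCAS3 region, the root of the summed squared differences in percentile over the 8 lists, was 5.4 percentile points for AGBL4, 6.8 for CHAT, 7.3 for PIPOX and for ARAP1, and 7.6 for COL5A1. At AGBL4 (chr1:48654101-48655678), RCOR1 was 45.51 and 23.58, induced RCOR2 13.83 and 9.569, RCOR3 18.55 and 23.42. LSD1 was 15.59 and 24.04 in the BCAS3 region, against 54.89 and 77.25 in the AGBL4 region.

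The body of BCAS3 held 16 regions of any of the 4 proteins, 5 of them with all 4. Over the genome, 3.23% of 46988 merged regions held all 4. By protein, LSD1 had 13 regions in the body, RCOR2 9, RCOR1 7 and RCOR3 7, and uninduced FLAG had none that both its replicates shared. LSD1 reached its highest values of either locus in chr17:61131306-61132030, 268.2 kb before the TBX2 start, with 18.34 and 26.55. In that region RCOR1 was 14.95 and 9.513, RCOR3 7.64 and 11.32, and induced RCOR2 4.844 and 6.53, with no uninduced FLAG peak. RCOR2 was the lowest of the 4 proteins here in both replicates.

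The next region toward TBX2 was chr17:61144112-61146369, where the values were 11.57 and 6.206 for RCOR1, 8.468 and 6.333 for RCOR2, 8.881 and 11.71 for RCOR3 and 8.554 and 11.53 for LSD1. Uninduced FLAG replicate 2 had a peak of 5.275 there. At chr17:61325096-61326624, 74.0 kb before TBX2, RCOR1 was 9.17 and 9.1, RCOR2 5.223 and 8.28, RCOR3 7.699 and 10.99 and LSD1 4.637 and 9.68, with no uninduced FLAG peak. Both regions thus had peaks of all 8 libraries of the 4 proteins. In chr17:61383436-61385496, next to the strong region, LSD1 was the lowest of the 4, at 2.683 and 3.827, with RCOR1 at 11.18 and 6.87, RCOR2 at 9.132 and 6.537 and RCOR3 at 7.933 and 11.84. The summits there spread over 1251 bp, so these values come from different places. The RCOR2 region that met LSD1 (chr17:61383436-61384311) had 5.113 and 6.037.

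At its own start, BCAS3 carried RCOR2 with little of the other proteins. Induced RCOR2 reached 11.5 and 7.967 over chr17:60677282-60678160, which takes in the BCAS3 sequence shown above, and uninduced FLAG had no peak. RCOR1 had a peak in replicate 1 only (3.727), as did RCOR3 (3.997), and LSD1 had none, its nearest peak being 38.2 kb away. The RCOR2 peak of replicate 1 covered 35 of the 300 bases shown and that of replicate 2 covered all 300.

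The start of TBX2 was the broadest RCOR2 region of the locus and carried no LSD1 peak in either replicate. RCOR2 covered chr17:61395615-61401225, 5611 bp over the start of TBX2 and most of the antisense RNA TBX2-AS1, with 53.08 and 55.61 in induced cells. Uninduced FLAG had 3.751 and 6.16 in the same region, in peaks that did not overlap. Where its 2 replicates did overlap, they had 3.751 and 4.815. The lowest induced value was thus above the highest uninduced one, although a weak FLAG peak was present without doxycycline in both replicates. How many of all RCOR2 regions show this order was not counted. RCOR1 was 8.894 and 6.571 and RCOR3 3.231 and 4.684, both below RCOR2 in each replicate. Replicate 1 of RCOR2 gave this stretch as a single peak, and replicate 2 as separate peaks of 2461, 2471 and 374 bp. The width of the region thus rests on replicate 1. The deposited RCOR2-low list, not RCOR2-high, holds the region.

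The body and 3′ end of TBX2 were likewise occupied by RCOR2. All 6 regions that touch the TBX2 body held RCOR2. Only the one at the start also held RCOR1 and RCOR3, and none held LSD1. Over the genome, 55% of merged regions held RCOR2 alone, and 7.12% of all 35870 RCOR2 regions met an LSD1 region. RCOR2 without LSD1 is thus the usual state and not particular to TBX2. Just beyond the 3′ end, over LINC02875 (chr17:61410147-61413338, 3192 bp), induced RCOR2 reached 43.15 and 79.2, and uninduced FLAG 5.638 and 6.117. RCOR1 was 7.409 and 6.204 there. RCOR3 had 5.362 and 4.054 in peaks that did not overlap each other. LSD1 had no peak within 24.9 kb. The RCOR2 peaks of both replicates cover the whole LINC02875 sequence shown above, and RCOR2-high holds the region.

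**Figure D2:**
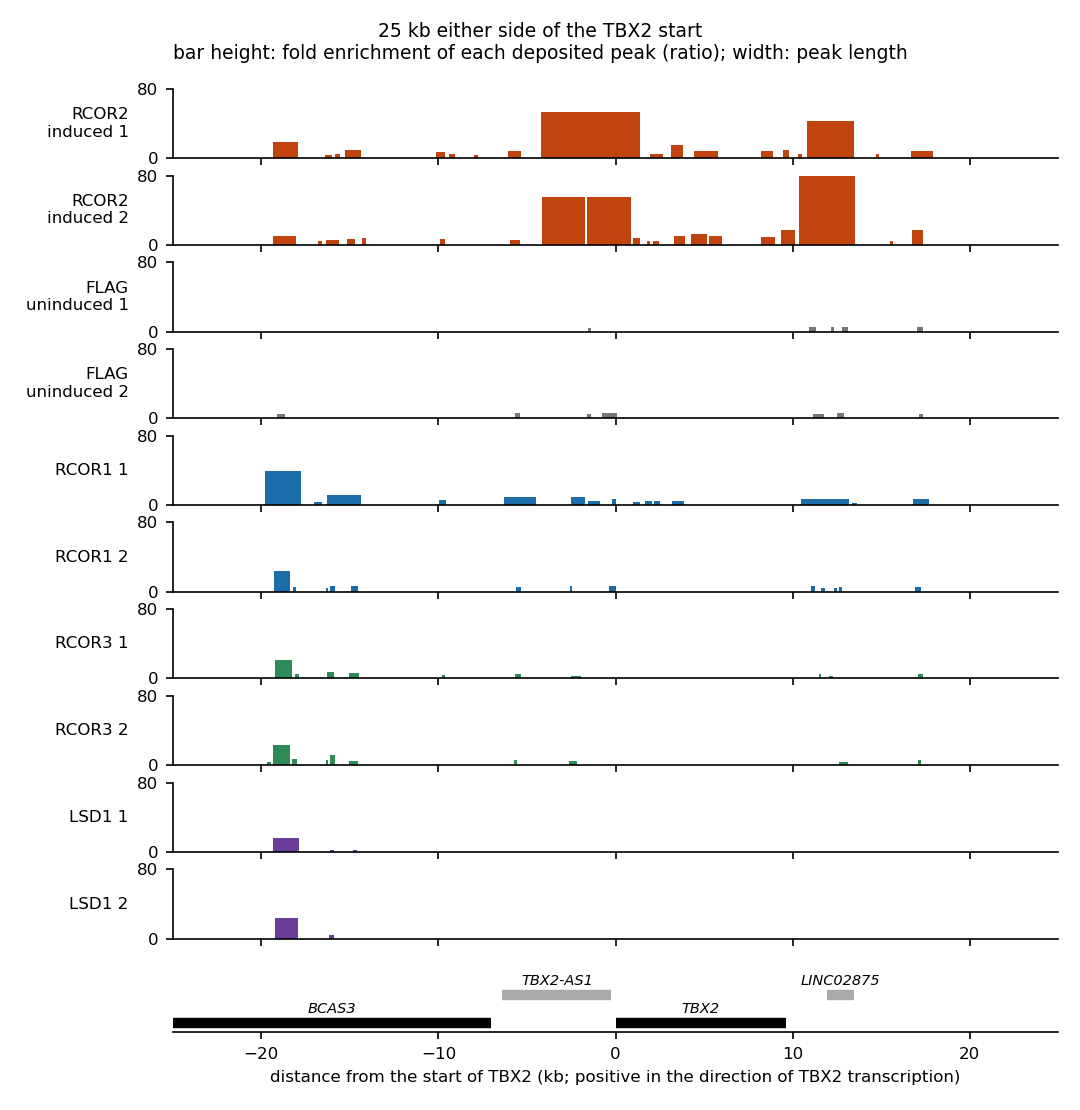
Fold enrichment (ratio, vertical axes from 0 to 80) of every deposited peak within 25 kb of the TBX2 start, by distance in kb, for the 10 libraries, with gene bodies below. RCOR2 peaks run across the start (53.08 and 55.61) and the 3′ end of TBX2 (43.15 and 79.2), and the LSD1 lists have none from the TBX2 start through LINC02875.

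LSD1 was missing from a longer stretch around TBX2. Between its last peak inside BCAS3 and its next one inside TBX4, a gap of 91.8 kb (chr17:61385263-61477097), neither LSD1 replicate had a peak. The stretch held 14 RCOR2 regions, 5 of RCOR1 and 3 of RCOR3, each of the RCOR1 and RCOR3 regions meeting RCOR2, and 4 of uninduced FLAG. Meeting RCOR2 is usual for such regions without LSD1. In the genome, 4780 merged regions held RCOR1 with RCOR2 only, 364 RCOR3 with RCOR2 only, and 1921 all 3. Without RCOR2 and LSD1, 1063 held RCOR1 alone, 340 RCOR3 alone and 337 both. Of all 25690 gaps between LSD1 peaks in the genome, 362 (1.41%) held 14 or more RCOR2 regions. Among the 18932 gaps no longer than this one, 12 did, this one included. This gap was picked from these same data and sets the upper length limit of that second set. Neither count therefore measures how unusual it is. The TBX2 start region lay 10.4 kb from the nearest LSD1 peak and the TBX3 start region 8.5 kb, beside a median of 42.2 kb over all RCOR2 regions, of which 74.6% and 76.7% lay farther than these.

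Toward TBX4 all 4 proteins met again. In the body of TBX4 (chr17:61476650-61477713), RCOR1 was 12.99 and 9.003, RCOR2 13.67 and 10.43, RCOR3 8.163 and 9.918 and LSD1 3.841 and 4.457. Beyond its 3′ end (chr17:61485901-61488116), RCOR1 was 19.49 and 12, RCOR2 13.17 and 8.636, RCOR3 10.47 and 16.16 and LSD1 4.507 and 7.304. LSD1 was the lowest of the 4 in both replicates of each region. At the other edge, the start of PPM1D (chr17:60599529-60601373) likewise had its highest values from RCOR2, with induced RCOR2 of 24.41 and 46.37, uninduced FLAG of 4.487 and 4.122, RCOR1 of 8.618 and 7.859 and RCOR3 of 4.208 and 8.108. LSD1 had 3.657 there in replicate 1 only.

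The start of TBX3 also carried RCOR2 and RCOR1 without LSD1, with lower RCOR2 values than the start of TBX2. Over chr12:114683714-114685477, induced RCOR2 reached 18.81 and 37.74, and uninduced FLAG 4.277 and 5.189. RCOR1 was 8.722 and 5.331. RCOR3 had 4.36 and 5.17, in peaks that did not overlap. LSD1 had no peak, and RCOR2-high holds the region. The induced values were above the uninduced ones here too, an order that was not counted over all RCOR2 regions.

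Along the body of TBX3, RCOR2 regions continued, and LSD1 joined 1 of them. In chr12:114674156-114675336, induced RCOR2 was 16.6 and 21.8 and LSD1 6.016 and 9.486, with RCOR1 in replicate 1 only (6.056). In chr12:114671724-114672464, RCOR2 was 14.94 and 18.61 with no peak of any other library. Past the 3′ end (chr12:114668029-114669919), RCOR2 was 17.15 and 15.01, RCOR1 5.59 and 6.826 and RCOR3 6.378 and 7.426. None of these had an uninduced FLAG peak. The other 5 LSD1 regions of the TBX3 window, at 4.975 to 6.126 in replicate 1 and 4.43 to 8.191 in replicate 2, met no consensus region of a corepressor. Some of them held corepressor peaks of a single replicate. In chr12:114673381-114673958, replicate 1 had RCOR1 at 7.38, RCOR2 at 6.965 and RCOR3 at 4.844.

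**Figure D3:**
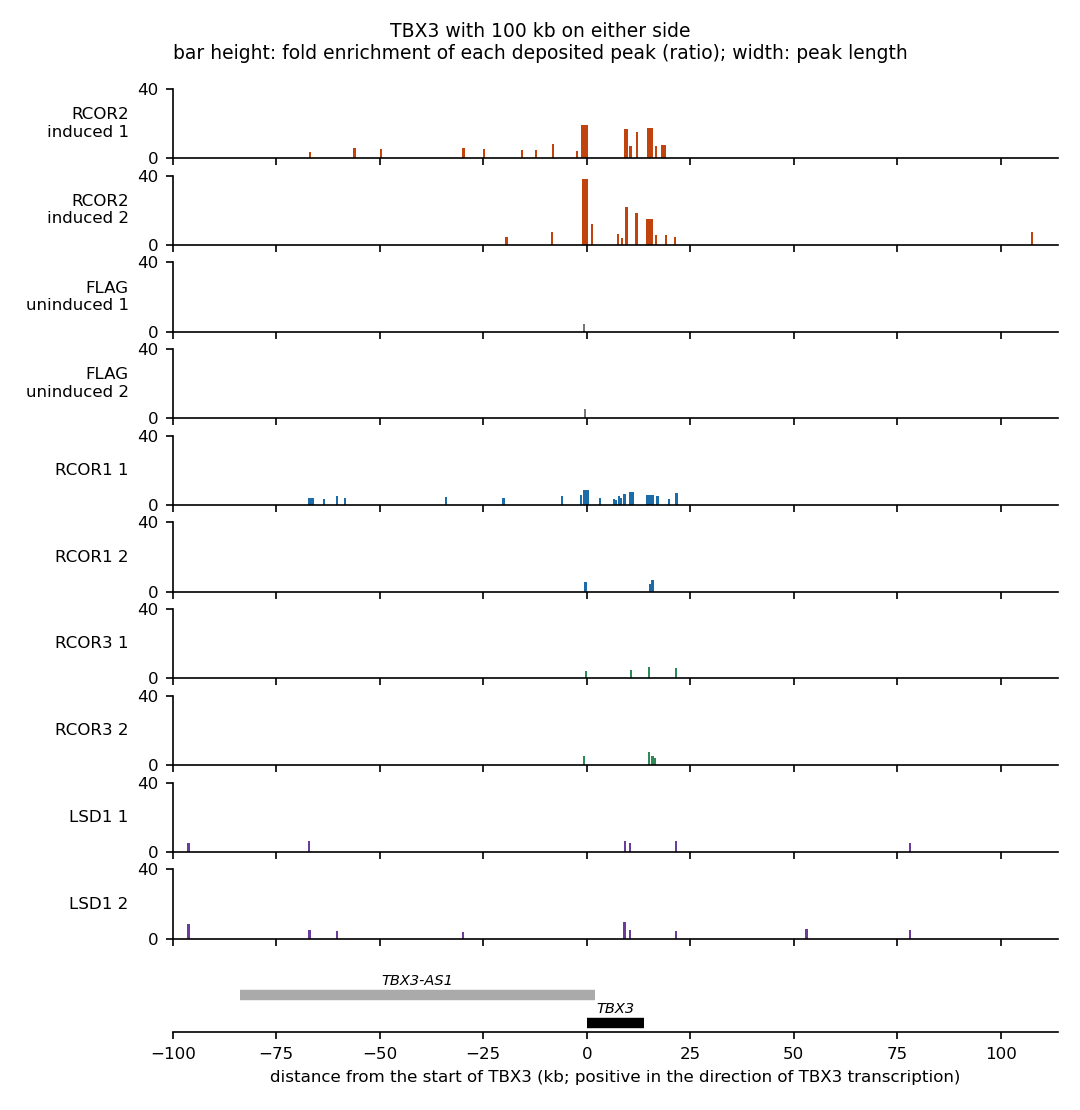
Fold enrichment (ratio, vertical axes from 0 to 40) of every deposited peak along TBX3 with 100 kb on either side, by distance in kb from the TBX3 start in the direction of transcription, for the 10 libraries. Induced RCOR2 has its tallest bars at the start (18.81 and 37.74), where uninduced FLAG has its only peaks (4.277 and 5.189) and LSD1 has none.

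Merging the regions of all 4 proteins gave 34 at BCAS3 and TBX2 and 12 at TBX3. All 4 proteins shared 7 of the first and 0 of the second, beside 3.23% of 46988 merged regions in the genome. RCOR2 alone made up 16 of the 46 (34.8%, beside 55% of all merged regions), with 5.113 to 15.09 in replicate 1 and 4.402 to 18.61 in replicate 2. LSD1 alone made up 11 (23.9%, beside 14.1%), with 4.157 to 6.612 in replicate 1 and 4.43 to 8.191 in replicate 2. Alone here means without a region of another protein that both replicates shared. Most of these 11 also held an RCOR1 peak in replicate 1 only, of 3.261 to 7.38, as did some of the RCOR2-alone regions. A further 5 regions held RCOR1, RCOR2 and RCOR3 without an LSD1 region (10.9%, beside 4.09%), the TBX2 start among them.

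By pairs of proteins, 8 of the 33 RCOR2 regions (24.2%) met an LSD1 region, beside 7.12% of all 35870 RCOR2 regions. From the other side, 8 of the 21 LSD1 regions (38.1%) met RCOR2, beside 19.3% of all LSD1 regions. LSD1 was met by 8 of the 17 RCOR1 regions (47.1%, beside 36.9% in the genome) and by 9 of the 16 RCOR3 regions (56.2%, beside 55.3%). The RCOR3 share was thus close to that of the genome. Most of this sharing lay at BCAS3 and TBX2, where 7 of 26 RCOR2 regions met LSD1. At TBX3, LSD1 was met by 1 of 7 RCOR2, 0 of 2 RCOR1 and 0 of 1 RCOR3 regions. There 1 of 6 LSD1 regions (16.7%) met RCOR2, below the genome share. Taking each protein's peaks from replicate 1 by itself, over both loci, LSD1 was met by 22 of 69 RCOR1 and 14 of 26 RCOR3 regions. From replicate 2 by itself, LSD1 was met by 11 of 26 RCOR1 and 11 of 26 RCOR3 regions. The RCOR1 share was thus lower from replicate 1 than from replicate 2. Genome shares at these settings were not counted, so these shares cannot be set beside the 36.9% and 55.3%. Because regions of 1 locus share their chromatin and their libraries, these counts are not independent observations.

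Without doxycycline, FLAG peaks of both libraries were found at the 4 regions with the highest induced RCOR2 values, the starts of TBX2, TBX3 and PPM1D and the LINC02875 region. Of the 33 RCOR2 regions, 10 (30.3%) held a peak of either uninduced library, beside 26.1% of all RCOR2 regions, and 5 of them held a peak of both. From replicate 1 of each group by itself, 6 of 57 RCOR2 regions (10.5%) held an uninduced peak, beside 10.1% in the genome, and from replicate 2 by itself 9 of 59 (15.3%), beside 10.0%. RCOR2 values in the 10 regions ran from 8.219 to 53.08 in replicate 1 and from 5.708 to 79.2 in replicate 2. In the 23 regions with no uninduced peak they ran from 4.844 to 17.15 and from 4.402 to 21.8. Of the 20 uninduced peaks at the 2 loci, 19 lay in an RCOR2 region. The same share over all uninduced peaks of the genome was not counted, so this count has no background. The part that binding of leaked transgene product or of the antibody itself had in these peaks was not tested. Leaving out the 10 regions left 17 RCOR2 regions at BCAS3 and TBX2 and 6 at TBX3, and took away the start and the LINC02875 region of TBX2, the start of TBX3 and the strong region in BCAS3.

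**Figure D4:**
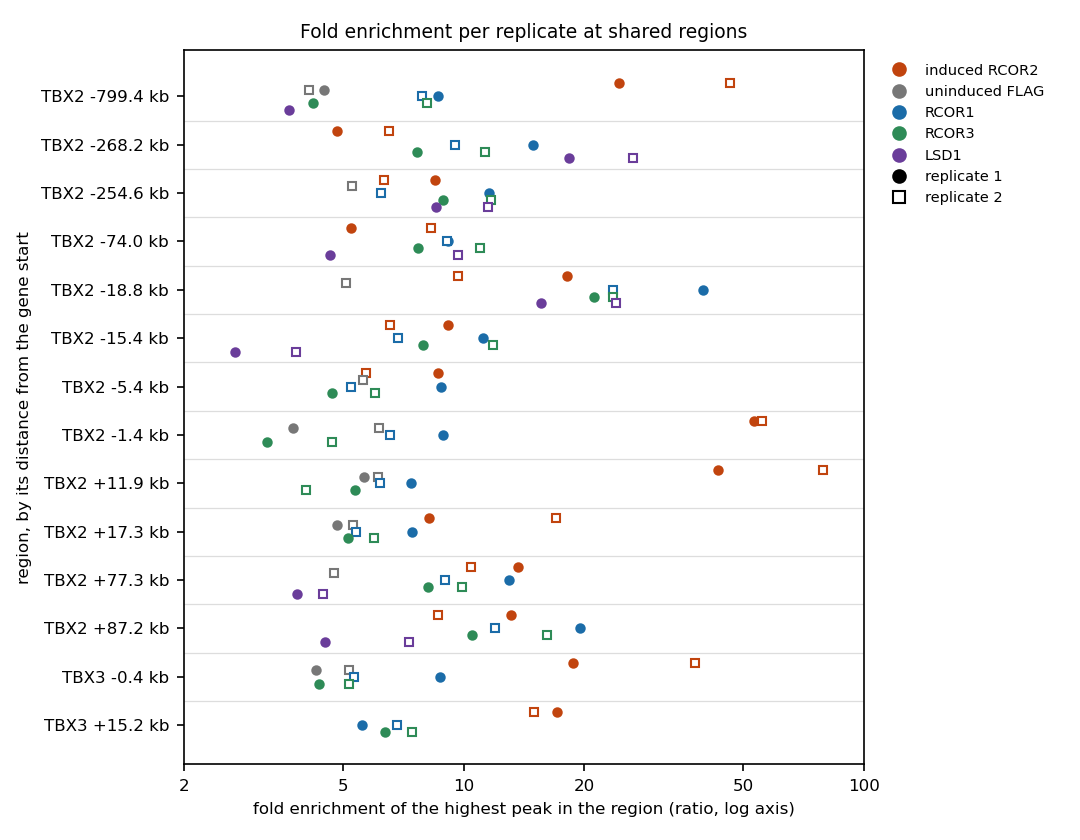
Fold enrichment (ratio, log axis) of the highest peak per library in the regions held by 3 or 4 proteins, and in those held by RCOR2 and another protein within 2 kb of a gene end, named by their distance in kb from the start of TBX2 or TBX3. Filled circles are replicate 1, open squares replicate 2 and colours the 5 groups. RCOR2 lies to the right of the others at the starts of TBX2 and TBX3 and at the 3′ end of TBX2, and to the left of the other 3 proteins at −268.2 kb.

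Within 2 kb of an end of TBX2, TBX3 or BCAS3, RCOR2, RCOR1 and RCOR3 each had a region at all 3 genes, uninduced FLAG at 2 and LSD1 at 0. The RCOR3 region counted for TBX2 reaches into the 2 kb through its replicate 1 peak (3.231) only, and the replicate 2 peak (4.684) ends short of it. Over 19974 protein-coding genes, the shares with a region at an end were 70.8% for RCOR2, 30.5% for RCOR1, 10.6% for RCOR3, 5.77% for uninduced FLAG and 4.17% for LSD1. Counted per length over the gene body and 100 kb on either side, the TBX2 window held 57.2 RCOR3 regions per Mb, more than 99.8% of gene windows, and 28.6 LSD1 regions per Mb, more than 98.6%. The TBX3 window had more LSD1 regions per Mb than 98.5% of gene windows, but its RCOR2, RCOR1 and RCOR3 densities exceeded only 69.1%, 62.0% and 68.6% of them. In the BCAS3 window, the densities exceeded 64.8% for RCOR2, 78.4% for RCOR1, 93.9% for RCOR3 and 94.5% for LSD1. RCOR1, at 47.7 per Mb, and RCOR2, at 95.4, exceeded 98.3% and 93.9% of gene windows at TBX2. The windows of TBX2, BCAS3 and TBX4 overlap and share most of these regions.

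Other T-box genes were examined in the same way. Of 17 T-box genes, 13 carried RCOR2 at an end, 2 uninduced FLAG (TBX2 and TBX3), 6 RCOR1, 3 RCOR3 and 2 LSD1. Over all protein-coding genes, the shares were 70.8%, 5.77%, 30.5%, 10.6% and 4.17%, in that order. The RCOR2 and RCOR1 counts of the family were near those shares. The RCOR3 regions were at TBX2 (by replicate 1 only), TBX3 and TBX4, and the LSD1 regions at TBX4 and TBX6. TBX2 had the highest RCOR2 values of the family, 53.08 and 79.2 over either of its ends. By the lower of the 2 values, TBX10 followed with 47.02 and 44.66, MGA, whose protein combines a T-box with a partner domain for MAX, with 36.51 and 33.49, and TBX20, a heart factor, with 26.87 and 40.52. TBX5, TBX19 and TBX22 had no peak of any library there, and TBX15 had RCOR2 peaks (4.425 and 6.379) that shared no region.

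**Figure D5:**
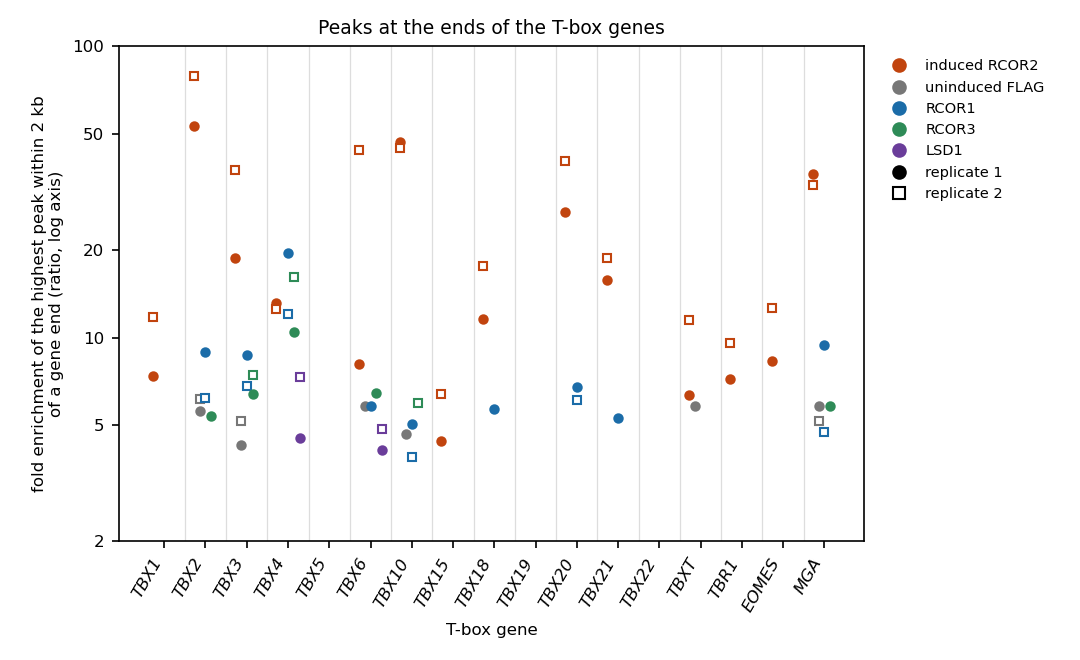
Fold enrichment (ratio, log axis) of the highest peak within 2 kb of either end of each of 17 T-box genes, per library (filled circles replicate 1, open squares replicate 2, colours the 5 groups). RCOR2 points are highest at TBX2 (53.08 and 79.2), and LSD1 points appear only at TBX4 and TBX6.

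Of the regulators of the adrenergic state, a list of 28 genes that includes TBX2, 24 carried RCOR2 at an end, 4 uninduced FLAG, 14 RCOR1, 7 RCOR3 and 3 LSD1. The shares over all protein-coding genes were 70.8%, 5.77%, 30.5%, 10.6% and 4.17%, in the same order. MYCN, which is amplified in these cells, is among the genes counted for all groups but LSD1. The lower of its 2 percentiles was 36.7 for RCOR2, 3.0 for uninduced FLAG, 1.0 for RCOR1 and 0.8 for RCOR3. What part the amplification had in these calls was not tested. TBX2 counts for RCOR3 by replicate 1 only. PHOX2A, a homeodomain factor of noradrenergic neurons, came nearest to TBX2 by the lower of its 2 ranks in the RCOR2 lists, with RCOR2 of 30.35 and 53.16, RCOR1 of 12.83 and 7.351 and RCOR3 of 7.272 and 7.473. At TBX2, LSD1 had no peak at either end.

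At the borders of the windows, the peaks just inside were RCOR2 replicate 2 at 7.44 and LSD1 replicate 2 at 8.19 for TBX3, and RCOR1 replicate 1 at 3.41 and RCOR2 replicate 1 at 5.58 for BCAS3 and TBX2. Those just outside were RCOR2 replicate 1 at 9.40 and 4.24 for TBX3, and RCOR2 replicate 2 at 4.79 and LSD1 replicate 1 at 7.01 for BCAS3 and TBX2. The outside peaks lay 85.1 and 41.7 kb beyond the TBX3 window, and 7.7 kb beyond each border of the other.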

How the data were processed

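Peaks were called by the authors per library. The submitters' processing notes name BWA 0.7.17, MACS2 and the build GRCh38. The deposited lists give each peak's fold enrichment, a ratio, and the −log10 of a p-value and of a q-value as the authors' peak caller wrote them. The control library and later filters are not stated in any source used. No counts were used, so depth is unknown. A pair of deposited lists, RCOR2-high and RCOR2-low, holds positions only. Peak names inside the lists of RCOR1 replicate 2, RCOR3 replicate 2 and FLAG carry other replicate names than the labels, which were followed.

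Only chromosomes 1 to 22 and X entered. Regions are the merged peaks of a group in which both libraries take part, overlapping by 1 bp or more. A protein meets a region where its own consensus region overlaps by at least 1 bp. An uninduced FLAG peak counts from either library where an RCOR2 region is described. The RefSeq table (GRCh38.p14) gives no strand and no exons. Transcription of TBX2 toward higher and of TBX3 toward lower coordinates is textbook knowledge. Likeness to the BCAS3 region is the Euclidean distance between fold percentiles over 8 lists. The genes named beyond the members are the 5 nearest by that measure, those in the windows, and members of the 2 gene lists, of which all T-box and adrenergic genes were found by symbol. Members and gene lists were chosen with earlier results of these data known, so no test was made. Python 3.11.15 and matplotlib 3.10.9 were used, and region merging was tested on simulated intervals.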

Additional observations from a re-analysis of the deposited data

How the results depend on the processing

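Of 87 counts recomputed under other settings, 47 stayed within 1.5 times the reported count. Peaks of either library gave, at BCAS3 and TBX2, 52 RCOR2, 13 uninduced FLAG, 48 RCOR1, 26 RCOR3 and 31 LSD1 regions, and at TBX3 22 RCOR2, 21 RCOR1 and 7 RCOR3. With a 50% reciprocal overlap, RCOR1 had 2 and 0 regions at BCAS3 and TBX2 and at TBX3, and uninduced FLAG 3 and 0. Peaks above the median score gave 8 LSD1 and 2 uninduced FLAG regions at BCAS3 and TBX2, and 1 RCOR1, 2 LSD1 and 0 uninduced FLAG at TBX3. A flank of 10 kb gave 3 LSD1 regions at TBX3. Leaving out either replicate gave 41 to 46 RCOR2, 7 to 11 uninduced FLAG, 23 to 48 RCOR1 and 19 to 29 LSD1 regions at BCAS3 and TBX2, and 13 to 16 RCOR2, 3 to 21 RCOR1 and 4 RCOR3 at TBX3. Without regions holding an uninduced FLAG peak, an alternative chosen after seeing the data, RCOR2 had 17 regions at BCAS3 and TBX2.

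For both loci, peaks above the median score gave 4 RCOR2 regions with an uninduced FLAG peak, 4 regions of all 4 proteins and 5 LSD1 regions with RCOR2. Peaks of either library gave 11 of all 4 proteins, 17 LSD1 regions with RCOR2, 24 RCOR1 and 14 RCOR3 regions with LSD1. Leaving out either replicate gave 6 to 9 RCOR2 regions with an uninduced peak, 11 to 22 RCOR1 and 11 to 14 RCOR3 regions with LSD1. Peaks set to 500 bp kept every one of these 5 counts within 1.5 times. The causes were not tested. No paired analysis was possible because the results come from no test. Without read counts, a missing peak shows only that none passed the authors' caller, and 2 libraries per group limit the precision.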
